A study of Arabidopsis thaliana with 20 samples.

Results

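Giant cells are the enlarged, multinucleate feeding cells that the root-knot nematode Meloidogyne incognita induces in the vascular tissue of a root. Laser-captured giant cells of Arabidopsis thaliana, Columbia ecotype, were amplified with the NuGEN kit WT-Ovation One-Direct or with WT-Ovation Pico, and the comparison here is One-Direct against Pico within giant cells. It uses the 10 arrays whose titles name giant cells, which hold 6 biological samples, out of 20 arrays and 12 biological samples in the series. Each kit had 3 biological samples on 5 arrays, because sample 1 of each kit was split over 3 technical arrays. All samples came from seedlings inoculated at an age of 3 weeks with 1000 second-stage juveniles and sectioned 21 days after inoculation. Each giant cell sample was about 80 cells, or 5000000 square micrometres of section. For Pico, RNA was purified on a spin column before amplification, whereas for One-Direct cells were lysed directly after capture with no column step. The 2 steps always went together, so purification and amplification cannot be told apart, and "kit" stands for both. The 6 control samples, root cells away from the nematode in infested roots (about 150 cells each, 3 per kit), entered the fit for the estimate of spread and for the test of whether the kit difference was the same in both cell types.

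Picogram amounts of RNA must be copied many times before they can be hybridised to an array. Amplification kits of this type copy RNA into cDNA and then make many single-stranded copies of that cDNA by isothermal strand displacement, and any transcript that is primed or copied better than others is over-represented in the product. Giant cells are metabolically active, with dense cytoplasm, many ribosomes and several nuclei, so the transcripts of protein synthesis, the cytoskeleton and wall loosening are those usually looked for in them.

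One sample stood apart. One-Direct sample 1 correlated across 14652 probe sets (Pearson's r of log2 signals) at 0.770 and 0.724 with One-Direct samples 2 and 3, and at 0.766, 0.757 and 0.748 with Pico samples 1, 2 and 3, so it lay between the kits. One-Direct samples 2 and 3 correlated at 0.823 with each other and at 0.474 to 0.531 with Pico samples. Pico samples correlated at 0.925 to 0.960 among themselves. These values describe the samples and carry no test, since probe sets are not independent. One-Direct sample 1 was also the sample averaged over 3 technical arrays, as was Pico sample 1. Results that this sample moved are given with and without it. All arrays were scaled by the authors to one trimmed mean, so signals are shares of an array's total in arbitrary units, and fewer cells captured cannot be told apart from less RNA recovered per cell. Which plants went into which sample is not part of the labels. The p-values therefore reflect how far these samples varied, which may be technical, and precision is set by having 3 samples a kit.

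One-Direct gave signal on more probe sets than Pico in giant cells. With a signal of 100 as the threshold for detection, a level chosen here because the values used carry no detection calls, One-Direct samples 1 to 3 detected 16200, 18916 and 18373 of 22746 probe sets, and Pico samples 1 to 3 detected 13245, 13587 and 13243. The groups did not overlap, and One-Direct sample 1 was the lowest of its kit (exact permutation test, two-sided, p = 0.1, which is the smallest that 3 against 3 allows). All 3 samples of both kits detected 11270 probe sets. Another 2287 were detected in all One-Direct samples and in no Pico sample, 72 the other way round, 1987 in no sample, and 7130 in some samples only. Of the probe sets detected in all Pico samples, 92.6% were also detected in all One-Direct samples, and in the other direction the share was 75.9%. Without One-Direct sample 1, the counts for a single kit were 4162 for One-Direct and 175 for Pico. Leaving out any sample can only raise these counts, because fewer samples then have to meet the rule. After quantile normalisation, which gives every array the same distribution, 1058 were detected with One-Direct only and 631 with Pico only.

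Probe sets detected with One-Direct only had a median signal of 334 in One-Direct and of 25.5 in Pico. The protein-coding genes brightest among them, by their lowest One-Direct signal and chosen after values were seen, were AT5G59170, AT1G49680 and AT2G07505. AT5G59170 had signals of 1725, 4232 and 2998 in One-Direct samples 1 to 3 and of 27.6, 77.7 and 42.9 in Pico samples 1 to 3. These genes were chosen for One-Direct signals above the threshold and Pico signals below it, so that separation follows from the choice. The probe set of AT1G49680 carries the suffix _x_at, which marks probes that may match transcripts of other genes. Probe sets detected with Pico only were dim, with a median signal of 167 in Pico and a highest mean of 364, against a median of 63.9 in One-Direct. The brightest protein-coding genes among them, chosen in the same way, were AT3G57785, AT3G23170 and AT3G16330. AT3G57785 had signals of 92.1, 58.2 and 50.7 in One-Direct samples 1 to 3 and of 291, 379.9 and 337 in Pico samples 1 to 3 (log2 difference -2.11, SE 0.53, adjusted p = 0.0122, limma, n = 3 per kit). The adjusted p was 0.00623 for AT3G16330 and 0.138 for AT3G23170, which therefore missed the threshold of 0.05. Of the 72 probe sets, 25 passed the filter on low signals and 14 were called different, where 21.2% of all tested probe sets were called. Of the 2287 detected with One-Direct only, 1432 passed and 1375 were called. Both sets were chosen for a separation of the kits at the threshold, so a raised share of calls follows from the choice.

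**Figure D1:**
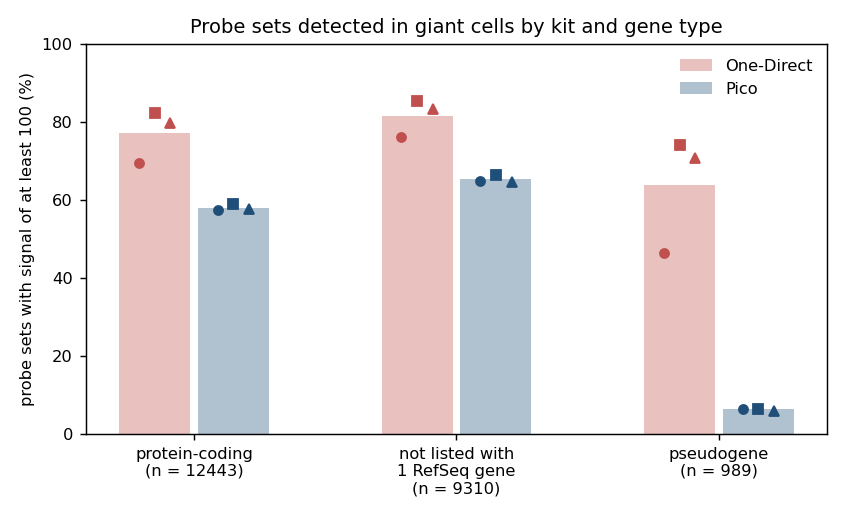
Percentage of probe sets with a signal of at least 100 in each giant cell sample, by gene type in the reference table; bars are means of 3 samples, points are samples (circle 1, square 2, triangle 3). Pico samples detected 59 to 64 of 989 pseudogene probe sets and One-Direct samples 459 to 733.

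The largest contrast between gene types was at annotated pseudogenes. These are copies, often of transposable elements or degenerate genes, that are not expected to encode a working protein. Of 989 pseudogene probe sets, One-Direct samples 1 to 3 detected 459, 733 and 700, and Pico samples 1 to 3 detected 64, 64 and 59. In all samples of a kit, 444 were detected with One-Direct and 42 with Pico, with 37 in both, 373 in One-Direct only and 2 in Pico only. Without One-Direct sample 1 the One-Direct-only count was 570, a count that leaving out a sample can only raise. The median signal per sample was 88.7, 228 and 230.0 in One-Direct and 14.6, 14.1 and 7.52 in Pico. Among the 12443 protein-coding probe sets, 7895 were detected in all One-Direct and 6539 in all Pico samples, with 6022 in both, 1152 in One-Direct only and 46 in Pico only. Over all 989 pseudogene probe sets, bright or dim, every One-Direct sample lay above every Pico sample at 757, where 33.9% of all 22746 probe sets did so, and every One-Direct sample lay below at 7, against 15.2% of all. In a limma fit without a filter on low signals, 701 of the 989 were higher in One-Direct, where 23.2% of all probe sets were higher and 3.97% lower. The median log2 difference over the 989 was 2.44, against 0.39 over all probe sets. A detected signal here says that the probe set gave light above the threshold and not that the pseudogene was transcribed.

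The 5 pseudogenes with the largest differences were AT3G30670, AT1G36550, AT4G04010, AT3G29210 and AT1G52090. AT1G36550 had signals of 3701, 3738 and 4468 in One-Direct samples 1 to 3 and of 5.39, 4.05 and 2.86 in Pico samples 1 to 3 (log2 difference 7.63, SE 0.45, adjusted p = 8.83e-07, limma, n = 3 per kit). AT3G30670 had signals of 2009, 5726 and 5000.1 in One-Direct samples 1 to 3 and of 1.95, 4.78 and 3.94 in Pico samples 1 to 3, and its difference was 7.63. For AT4G04010, AT3G29210 and AT1G52090 the differences were 6.89, 6.75 and 6.73. The rule that chose these genes required no overlap between the kits and a signal of at least 200 in every One-Direct sample. Their separation therefore follows from the choice. Differences were computed as log2(signal + 16), and Pico signals around or under 16 make the size of these differences depend on that added constant: for AT1G36550 it ran from 5.88 to 9.66 over the alternatives tried. Probe sets of AT3G30670 and AT1G52090 end in _s_at, those of AT4G04010 and AT3G29210 in _x_at, and only that of AT1G36550 has neither suffix. AT4G05300 and AT1G64560 were the pseudogenes detected with Pico only, and both were dim. AT4G05300 had signals of 46.8, 75.4 and 64.3 in One-Direct samples 1 to 3 and of 121, 140.5 and 102 in Pico samples 1 to 3, and AT1G64560 had signals of 60.3, 63.7 and 68.8 in One-Direct samples 1 to 3 and of 149.9, 121 and 123 in Pico samples 1 to 3. No pseudogene was called lower in One-Direct in the filtered fit, in which 350 passed the filter and 5.99% of all tested probe sets were lower. Pseudogenes dim in Pico passed that filter mainly through a high One-Direct signal. The filter itself thus left little room for lower calls.

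A filter kept the 14652 probe sets that exceeded their array's median in 3 or more of the 12 samples. Of these, 3099 (21.2%) differed between the kits in giant cells by limma (adjusted p under 0.05, Benjamini-Hochberg over all tested). They were 2222 (15.2%) higher in One-Direct and 877 (5.99%) lower. Higher calls made up 71.7% of calls with the authors' scaling and 32.4% after each array was centred on its median, and after quantile normalisation 1585 were higher and 1298 lower. Centring moved the median difference of all probe sets from -0.01 to -0.69, so the share of calls in each direction moved with the choice of scaling. Without One-Direct sample 1, 2188 were higher and 1010 lower. Calls numbered 1859 without One-Direct sample 2 and 1894 without sample 3, and lower calls 378 and 394. Lower calls were 393, 385 and 466 without Pico samples 1, 2 and 3, and 1583 without control One-Direct sample 1. The 2 directions differed in size. A difference of at least 2 log2 units was found at 1821 of the higher calls and 119 of the lower, and of at least 4 log2 units at 465 and 0. Members dim in Pico passed the filter mainly through One-Direct, so these sizes and the signals of higher calls are partly set by it. Higher calls had low Pico signals, with a median signal of 33.3 against 451 in One-Direct. Lower calls had a median of 2407 in Pico against 778 in One-Direct. Before any test, samples of the kits did not overlap at 24.7% of tested probe sets in the higher direction and at 22.3% in the lower.

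The difference between kits fell as the Pico signal of a probe set in control cells rose. Probe sets were grouped by their mean Pico signal in control cells, samples that take no part in the giant cell difference, although they share the Pico kit. Pico is also the side subtracted in that difference. A Pico bias shared by both cell types would by itself give such a fall, and its part was not tested. All 22746 probe sets were used, with no filter on low signals, because a probe set dim in Pico passed the filter mainly through a high One-Direct signal. At a control signal under 16 the median log2 difference in giant cells was 1.96, and every One-Direct sample lay above every Pico sample at 1918 of 2687 probe sets and below at 11. The 422 of these that passed the filter had a median of 3.93, a value the filter itself raised. The unfiltered median was 1.63 from 16 to 50, 0.96 from 50 to 100 and 0.17 from 100 to 500. Above that it was negative, at -0.26 from 500 to 2000, -0.70 from 2000 to 8000 and -1.12 from 8000, where One-Direct lay below Pico without overlap at 150 of 214 probe sets and above at 1. Protein-coding probe sets alone had unfiltered medians of 1.88 under 16, 0.91 from 50 to 100 and -1.05 from 8000. Pseudogenes lay higher in the dim steps, with unfiltered medians of 2.57 under 16, 2.44 from 16 to 50, where protein-coding probe sets had 1.54, and 2.69 from 50 to 100. In that last step 44 of 56 pseudogenes and 573 of 1358 protein-coding probe sets were higher without overlap. These medians are descriptions with no test. The spread of signals within an array was narrower with One-Direct: the log2 ratio of the 75th to the 25th percentile signal was 3.04, 2.24 and 2.41 in One-Direct samples 1 to 3 and 4.19, 3.92 and 4.66 in Pico samples 1 to 3.

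**Figure D2:**
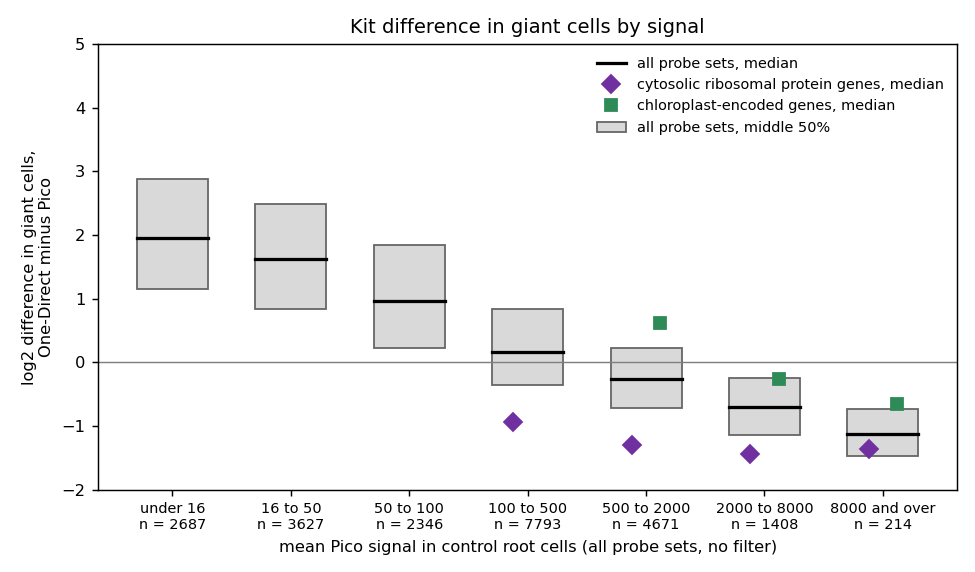
Log2 difference between One-Direct and Pico in giant cells (vertical axis) by mean Pico signal in control root cells (steps on the horizontal axis), with the median and middle 50% of all 22746 probe sets, unfiltered, and the medians of cytosolic ribosomal protein genes and chloroplast-encoded genes in the steps from 100 on that held at least 3. The median falls from 1.96 in the dimmest to -1.12 in the brightest step, and ribosomal protein genes lie below it in each of the 4 steps from 100 on.

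The protein-coding genes with the largest differences in favour of One-Direct were near the floor of the Pico arrays. AT2G42560 led them, with signals of 1050.5, 2817 and 3847 in One-Direct samples 1 to 3 and of 41.8, 11.4 and 9.02 in Pico samples 1 to 3 (log2 difference 6.06, SE 0.81, adjusted p = 0.000169, limma, n = 3 per kit). AtLEA4-1, a late embryogenesis abundant protein of the kind known from drying seeds, had signals of 849.6, 2384 and 2398 in One-Direct samples 1 to 3 and of 10.4, 18.6 and 21.4 in Pico samples 1 to 3 (log2 difference 5.72, SE 0.50, adjusted p = 8.44e-06, limma). RR19, a response regulator of the two-component family known from cytokinin signalling, had signals of 439.9, 2067 and 1651 in One-Direct samples 1 to 3 and of 9.5, 8.96 and 2.7 in Pico samples 1 to 3 (log2 difference 5.67, SE 0.51, adjusted p = 1.01e-05, limma). One-Direct sample 1 was the lowest of its kit for each of these 3 genes. The rule that chose them required no overlap between the kits, so their separation follows from the choice. AT2G07505, detected with One-Direct only, had signals of 1321, 2907 and 3278 in One-Direct samples 1 to 3 and of 31.8, 43.5 and 23.8 in Pico samples 1 to 3 (log2 difference 5.60). AT4G08380 was listed in Pico at 1.46, 1.52 and 0.858 and in One-Direct at 584, 1228.5 and 1406. The others named by the rule were AT1G23610 (6.01), AT2G37610 (5.96), AT4G00890 (5.72), AT4G32375 (5.71) and AT3G61720 (5.63), for which the tables used here give no gene name. All 10 were called in every alternative in which they passed the filter, but with Pico signals close to the added constant of 16 the sizes are not exact.

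The 10 named genes with the largest differences in favour of Pico were above the detection signal of 100 in every sample of both kits. The largest difference was at AT4G29410, listed among cytosolic ribosomal proteins, with signals of 906, 648 and 697 in One-Direct samples 1 to 3 and of 5359.5, 8289.7 and 8861.5 in Pico samples 1 to 3 (log2 difference -3.28, SE 0.38, adjusted p = 5.67e-05, limma, n = 3 per kit). AT3G11510, another ribosomal protein gene, had signals of 895, 448 and 276 in One-Direct samples 1 to 3 and of 3863, 4187 and 4097 in Pico samples 1 to 3 (log2 difference -3.03, SE 0.44, adjusted p = 0.000318, limma). Pico samples of AT3G11510 lay within a narrow range, while One-Direct sample 1 was the brightest and sample 3 the dimmest of its kit. AT2G19730 (-2.81) and AT3G53430 (-2.81) are ribosomal protein genes as well. TIC, which encodes TIME FOR COFFEE, a component of the circadian clock, had signals of 176, 141 and 172 in One-Direct samples 1 to 3 and of 1195, 1205 and 1129.6 in Pico samples 1 to 3 (log2 difference -2.74, SE 0.49, adjusted p = 0.00122, limma). HTB2, a histone H2B, had signals of 419, 320.1 and 1153 in One-Direct samples 1 to 3 and of 2865, 3521 and 3132 in Pico samples 1 to 3 (log2 difference -2.52, SE 0.51, adjusted p = 0.00302, limma), with One-Direct sample 3 well above the other One-Direct samples but below all Pico samples. AT5G01210 (-2.99), AT4G38710 (-2.77), AT1G76880 (-2.51) and AT4G02450 (-2.47) complete the 10, and the tables used here do not name them. No lower call reached 4 log2 units, and AT4G29410 was the furthest of the named genes at -3.28.

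**Figure D3:**
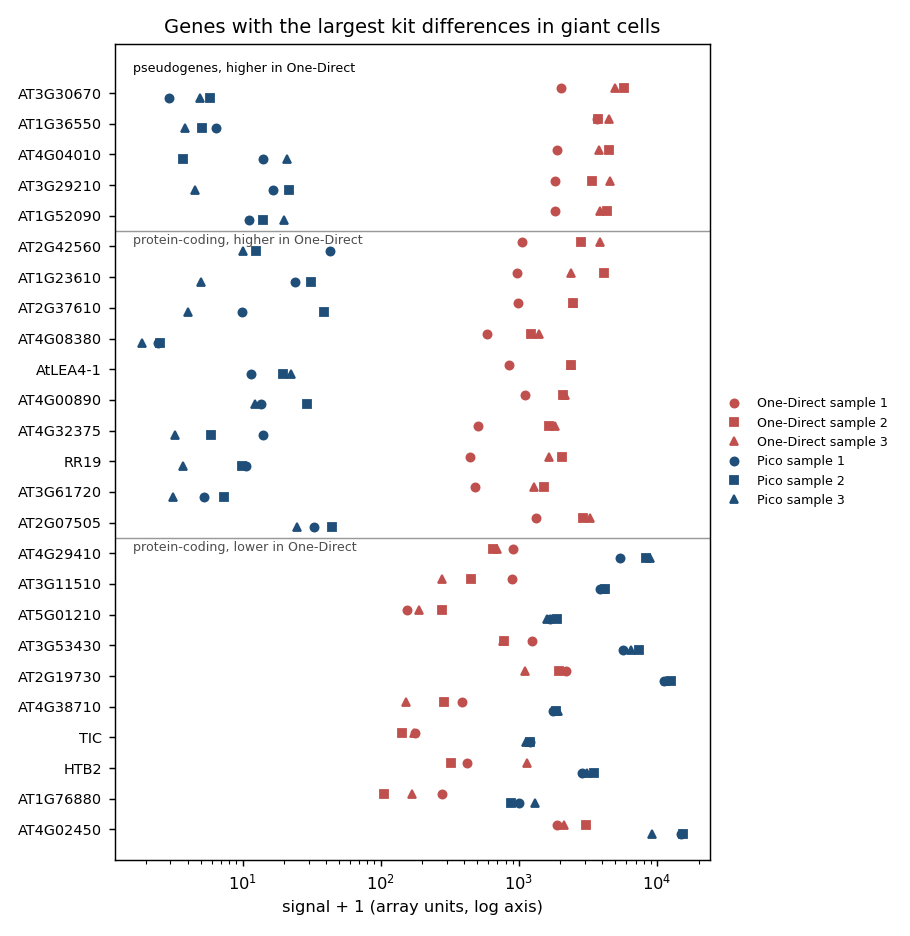
Signal of the named genes with the largest kit differences in each giant cell sample (log axis; 1 was added so that signals near 0 can be drawn), with One-Direct in red and Pico in blue. The genes higher in One-Direct lie near the floor in Pico, with a highest Pico signal of 43.5 (AT2G07505), whereas the genes lower in One-Direct are above the detection signal of 100 in both kits.

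Ribosomal protein genes fell together in One-Direct. They encode the proteins of the cytosolic ribosome, and the list of 234 loci was written from general knowledge, because the gene tables used here give most of them no name. Of these, 133 were on the array under 1 gene and 120 passed the filter. In One-Direct 77 of the 120 were lower and 3 higher, where 5.99% of all probe sets were lower and 15.2% higher, and the median log2 difference was -1.36. The median was -0.99 after quantile normalisation, with 49 lower, where the median of all probe sets was -0.21. After median centring it was -2.07, with 107 lower. Centring itself moved the median of all probe sets to -0.69 and all lower calls to 3674, so it could only keep this median negative. Without One-Direct sample 1 the median of ribosomal protein genes was -1.48, with 73 lower. The lower count was 46 and 44 without One-Direct sample 2 or 3, and 48 and 44 without Pico sample 1 or 2. Without the filter, every One-Direct sample lay below every Pico sample at 110 of the 133 genes, against 15.2% of all 22746 probe sets. They lay above at 8 of the 133, against 33.9% of all. Both kits detected 115 of the 133. The small subunit (26 of 44 kept genes lower, median -1.35), the large subunit (43 of 65, median -1.36) and the stalk (8 of 11, median -1.48) were alike in their values. AT5G20290, a small subunit gene and one of the brightest on these arrays, had signals of 9503, 7634 and 6262 in One-Direct samples 1 to 3 and of 22590.0, 23502 and 18419 in Pico samples 1 to 3 (log2 difference -1.47, SE 0.33, adjusted p = 0.00549, limma). These genes were bright, with a median signal of 3289 in Pico and 1246 in One-Direct.

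Ribosomal protein genes were also set against other genes of like Pico signal in control cells. In the step of control Pico signal from 500 to 2000, 21 ribosomal protein genes had a median of -1.29, with 11 lower, and 2376 other nuclear protein-coding probe sets a median of -0.23, with 132 lower. From 2000 to 8000 the medians were -1.43 for 65 ribosomal protein genes, 49 of them lower, and -0.62 for 564 others, 92 of them lower. From 8000 they were -1.35 for 20 genes and -0.98 for 68 others. From 100 to 500, unfiltered, they were -0.93 for 10 genes and 0.19 for 4406 others. These values are descriptions, and no list test was made. The 3 ribosomal protein genes that rose were AT3G10950, AT2G39590 and AT3G48960, and all were dim in Pico. AT3G10950 had signals of 462, 1032 and 1353 in One-Direct samples 1 to 3 and of 34.7, 52.3 and 50.9 in Pico samples 1 to 3 (log2 difference 3.84, SE 0.43, adjusted p = 4.76e-05, limma). AT2G39590 had signals of 300.0, 962 and 471 in One-Direct samples 1 to 3 and of 26.6, 19.4 and 21.7 in Pico samples 1 to 3 (log2 difference 3.79).

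Some genes of other groups were lower as well, where 5.99% of all tested probe sets were lower and 15.2% higher. Among histones, the proteins that package DNA, 10 of 16 on the array passed the filter, 5 were lower and 1 higher, with a median of -1.30. The lower count was 2 without One-Direct sample 2, 3 without Pico sample 1 and 8 without control One-Direct sample 1. Without the filter, One-Direct lay below Pico without overlap at 11 of the 16 and above at 2. Of all 22746 probe sets, 15.2% lay below and 33.9% above. HTB4, a histone H2B like HTB2, had signals of 1676, 1296.5 and 1409.8 in One-Direct samples 1 to 3 and of 5517, 6171 and 4726.5 in Pico samples 1 to 3 (log2 difference -1.89, SE 0.32, adjusted p = 0.000824, limma). The exception was MGH3, a histone H3 known from the male germ line, with signals of 190.1, 778 and 456 in One-Direct samples 1 to 3 and of 6.55, 8.77 and 10.1 in Pico samples 1 to 3 (log2 difference 4.12). Of 7 translation factor genes 2 were lower, AT5G19510 at -1.99 (adjusted p = 0.00507, limma) and AT5G54940 at -1.12, the latter with a call lost in 12 of 24 alternatives. EIF4A-2, an RNA helicase of translation initiation, was at -1.09 and did not pass (adjusted p = 0.112, limma). Of 6 tubulin and actin genes, which build the cytoskeleton, TUA6 (-1.73, signals of 1253, 575 and 627 against 2902, 2668 and 2218) and TUB6 (-1.47) were lower. Subunits of the vacuolar proton pump gave 3 lower of 9, with VHA-A3 furthest at -2.14, where One-Direct signals were 118, 61.6 and 76.5 and Pico signals 341, 497 and 439. LCR68, a small cysteine-rich peptide, was lower at -2.33, with Pico signals of 5942, 7601 and 5202, but LCR59 of the same family was called higher. Of 7 kept genes of this family 1 was lower and 1 higher. Over all 15 on the array, 1 lay lower and 5 higher without overlap, so the family was not lower as a group. In autophagy, the recycling of cell contents, ATG8C was lower at -1.21 (call lost in 5 of 24 alternatives) and the other 6 genes did not pass. The medians of histones, translation factors, tubulins with actins and the vacuolar pump stayed negative under quantile normalisation and median centring. Under these settings the median of all probe sets was -0.21 and -0.69. Centring thus lowered differences as a whole, so medians already negative could only stay negative after it.

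**Figure D4:**
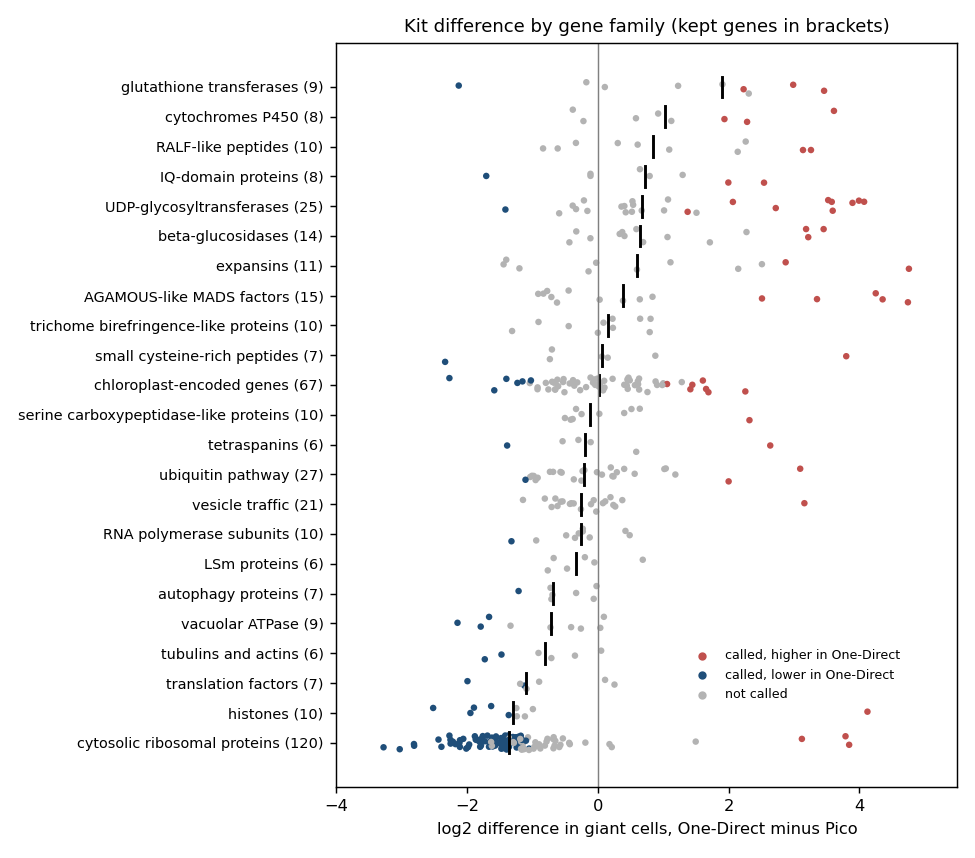
Log2 difference between One-Direct and Pico in giant cells (horizontal axis) of every kept gene of the families with at least 6 kept genes; each point is a gene, red or blue if called higher or lower in One-Direct and grey if not, and the black bar is the family's median. Of 120 ribosomal protein genes 77 are called lower and 3 higher.

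Families of enzymes and transcription factors with dim members were higher in One-Direct in part. These counts include members that passed the filter only through their One-Direct signal, and are read against 15.2% of tested probe sets called higher. Counts over all members on the array, without a filter, are given beside them, where 33.9% of all probe sets lay higher without overlap and 15.2% lower. UDP-glycosyltransferases, which attach sugars to hormones and other small molecules, had 9 of 25 kept genes higher and 1 lower. Over all 47 on the array, One-Direct samples lay above all Pico samples at 23 and below at 2. UGT84B2 had signals of 228, 801 and 551 in One-Direct samples 1 to 3 and of 21.5, 13.5 and 9.31 in Pico samples 1 to 3 (log2 difference 3.99, SE 0.50, adjusted p = 0.000109, limma), and UGT76E2 had signals of 464, 815 and 1361 in One-Direct samples 1 to 3 and of 88.9, 37.3 and 4.62 in Pico samples 1 to 3 (log2 difference 4.07). The median of the 25 kept was 0.67, and -0.03 after median centring. AGAMOUS-like MADS-box factors, known from flower and root development, gave 5 of 15 higher and 0 lower, and of 40 on the array 23 lay higher and 4 lower without overlap. AGL78 had signals of 417, 703 and 1168 in One-Direct samples 1 to 3 and of 1.13, 47.9 and 1.56 in Pico samples 1 to 3 (log2 difference 4.74), with Pico sample 2 above the other Pico samples. Their median of 0.39 was -0.31 after median centring and -0.08 after quantile normalisation. Among glutathione transferases, which detoxify by adding glutathione, GSTU22 (3.46), GSTU28 (2.99) and GSTU23 (2.23) of 9 kept genes were higher and GSTU20 lower (-2.13). Of the 14 on the array, 8 lay higher and 1 lower without overlap. GSTU20 was also the bright one in Pico, at 528, 1356 and 1073, whereas GSTU22 was at 24.3, 27.1 and 15.7. Of 8 cytochrome P450 genes CYP71B23 (3.61), CYP71B26 (1.94) and CYP71B5 (2.28) were higher, and of 14 beta-glucosidases BGLU32 (3.22), BGLU29 (3.45) and BGLU27 (3.19). On the array 12 of 23 P450 genes and 10 of 20 beta-glucosidases lay higher without overlap, and 0 of either lower.

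Single genes of growth, signalling and transport were higher in One-Direct, in shares to be read against the 15.2% of tested probe sets called higher. Expansins (2 of 11 kept) and RALF-like genes (2 of 10) were near that share, and ubiquitin pathway genes (2 of 27) below it. SWEET transporters and XTH enzymes had 1 of 4 each, too few to read as a share. Members dim in Pico passed the filter mainly through One-Direct. Over all members on the array, 7 of 18 expansins, 4 of 9 XTH enzymes, 6 of 14 SWEET transporters, 5 of 7 Aux/IAA and 5 of 11 RALF-like genes lay higher without overlap, where 33.9% of all probe sets did. The expansin and SWEET counts were near that share. In the other direction the counts were 1 Aux/IAA and 2 RALF-like genes. Expansins loosen the cell wall, and 2 of 11 kept were higher: EXPA24 had signals of 249, 1348.5 and 584 in One-Direct samples 1 to 3 and of 7.26, 8.4 and 3.34 in Pico samples 1 to 3 (log2 difference 4.76, SE 0.58, adjusted p = 8.19e-05, limma), and EXPA16 had signals of 225, 355 and 303 in One-Direct samples 1 to 3 and of 19.6, 34.4 and 24.5 in Pico samples 1 to 3 (log2 difference 2.87, SE 0.43, adjusted p = 0.000389, limma). XTH32, which remodels xyloglucan in the wall, was higher at 3.05, and 3 further XTH genes did not pass. The Aux/IAA repressors of auxin response IAA20 (3.39) and IAA29 (2.67) were higher, while IAA30 (adjusted p = 0.0966, limma) and IAA18 (adjusted p = 0.237, limma) did not pass. Of 4 SWEET sugar transporters SWEET2 was higher, with signals of 152, 332 and 334 in One-Direct samples 1 to 3 and of 21.1, 51.1 and 12.4 in Pico samples 1 to 3 (log2 difference 2.73). RALFL28 (3.14) and RALFL27 (3.26), members of a family of signalling peptides, were higher, and 8 others of the family did not pass. WRKY6, a transcription factor known from senescence and defence, was higher at 2.28, with One-Direct signals of 271, 456 and 394 and Pico signals of 67.7, 43.4 and 80.6. WRKY53, a relative known from senescence, had signals of 164, 459 and 179 in One-Direct samples 1 to 3 and of 256, 188 and 130.1 in Pico samples 1 to 3, and the kits overlapped. PUB22 (3.10) and PUB23 (2.00), ubiquitin ligases known from immune signalling, were higher and UBC19, a ubiquitin-conjugating enzyme, was lower (-1.11), while the other 24 of 27 ubiquitin pathway genes were not called. The call was lost in 6 of 24 alternatives for PUB23 and in 10 of 24 for UBC19. Of 21 kept vesicle traffic genes 1 was called higher, below the share of 15.2%, and 0 lower. The called gene was VPS24.2, at 3.16, while its paralogue VPS24.1 was at -0.62 and not called. Their Pico signals were 40.5, 85.5 and 50.4 and 3192, 3646 and 2849, so the paralogue that was brighter in Pico was the one not called. No gene was called among 10 trichome birefringence-like proteins, 6 LSm proteins, 3 subtilases and 3 calmodulin-like proteins by limma.

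Chloroplast-encoded transcripts, present in root plastids at lower levels than in leaves, were called in both directions. All 67 kept genes, of 69 on the array, were detected with both kits, 7 were higher and 6 lower, where 15.2% and 5.99% of all tested probe sets were, and the median difference was 0.01. The lower count was 2 without One-Direct sample 2 or 3 or Pico sample 1 or 2 and 4 without Pico sample 3, and without control One-Direct sample 1 the counts were 11 higher and 8 lower. The median was 0.54 after quantile normalisation, with 18 higher and 3 lower, and -0.69 after median centring, with 2 higher and 24 lower, so its sign depends on the scaling. Single genes differed strongly. ndhK, a subunit of the plastid NADH dehydrogenase-like complex, had signals of 2359.7, 2834.5 and 2051 in One-Direct samples 1 to 3 and of 721, 393 and 409 in Pico samples 1 to 3 (log2 difference 2.26, SE 0.39, adjusted p = 0.00104, limma). psaI, a small photosystem I subunit, had signals of 1004, 676 and 469 in One-Direct samples 1 to 3 and of 3778, 3530.5 and 2827.5 in Pico samples 1 to 3 (log2 difference -2.27, SE 0.39, adjusted p = 0.00101, limma). petL of the cytochrome b6f complex was higher at 1.69 and psbZ of photosystem II at 1.45. At a control Pico signal from 500 to 2000 these genes lay above nuclear ones, with medians of 0.61 for 26 chloroplast genes and -0.23 for 2376 nuclear protein-coding probe sets.

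The 10 protein-coding genes brightest in every giant cell sample all had lower means in One-Direct, and 5 of them were called. Of all tested probe sets 5.99% were called lower. At a control Pico signal from 8000, however, 43 of 98 protein-coding probe sets were called lower, with a median of -1.05. The 5 of 10 was near that share of bright probe sets, and is not read as particular to these genes. The highest floor over the 6 samples was that of rpl36, a chloroplast ribosomal protein gene, with signals of 9511, 8636 and 7519 in One-Direct samples 1 to 3 and of 13342, 15842 and 8682 in Pico samples 1 to 3, which overlapped between the kits and did not pass (adjusted p = 0.384, limma). AT1G54410, annotated as an 11 kDa dehydrin, was the brightest of the set in Pico, with signals of 14039, 14807 and 6849 in One-Direct samples 1 to 3 and of 35526, 55308 and 23537 in Pico samples 1 to 3 (log2 difference -1.67, SE 0.45, adjusted p = 0.0176, limma, call lost in 4 of 24 alternatives). ATG8F, an autophagy protein, had signals of 8340.3, 9408 and 6018 in One-Direct samples 1 to 3 and of 14665, 15742 and 8951 in Pico samples 1 to 3 and did not pass (adjusted p = 0.168, limma). psbF, a photosystem II subunit, had Pico signals of 20411, 29715 and 8282 and One-Direct signals of 7963, 11067 and 6548, and did not pass (adjusted p = 0.123, limma). AT3G07230 was lower at -1.23, AT5G53880 at -1.47 and AT1G52300, a ribosomal protein gene, at -1.48, while AT4G14270 (-0.79) and AT5G01350 (-0.50) were not called. After quantile normalisation AT3G07230 was at 0.06 and no longer called. Pico sample 3 was the lowest of its kit for all 10 of these genes and One-Direct sample 3 the lowest of its own.

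Few cell type markers could be read. Of 20 genes listed as reported in giant cells, 4 were on the array under 1 gene. HAT2, an auxin-responsive homeodomain factor, was detected in all samples, with signals of 907, 972 and 1365 in One-Direct samples 1 to 3 and of 2468.5, 1617 and 1965 in Pico samples 1 to 3, and did not pass (adjusted p = 0.379, limma). EXPA16, given above, was detected with One-Direct only. LBD16, a lateral organ boundaries factor of lateral root founder cells, had signals of 149, 297 and 399 in One-Direct samples 1 to 3 and of 67.2, 80.5 and 183 in Pico samples 1 to 3, which overlapped, and PUCHI, an ERF factor of lateral root primordia, had signals of 59.1, 86.1 and 184 in One-Direct samples 1 to 3 and of 5.99, 67.8 and 4.65 in Pico samples 1 to 3. Markers of other cells differed in level. The root hair expansins EXPA7 and EXPA18 were below 100 in every sample, with highest signals of 43.5 and 53.2. Phloem was read by SWEET11 only, with signals of 95, 108 and 17.5 in One-Direct samples 1 to 3 and of 5.81, 80.9 and 1.28 in Pico samples 1 to 3. The cortex marker AT1G62500 and SHT, known from pollen and anther tapetum, were above 100 in all One-Direct and in no Pico sample, at 106, 642 and 135 and 118, 209.6 and 129. LBD29, listed for stele and pericycle, had signals of 53.8, 95.8 and 204 in One-Direct samples 1 to 3 and of 16.2, 38.4 and 15.3 in Pico samples 1 to 3. RCA, which activates Rubisco and is a marker of leaf mesophyll, was detected in every sample, with signals of 561, 267 and 665 in One-Direct samples 1 to 3 and of 528, 439.9 and 579 in Pico samples 1 to 3, and did not pass (adjusted p = 0.918, limma). No xylem, endodermis or root meristem marker could be measured, so the make-up of the samples was read from 11 genes in all, and the part of other cells in the differences was not tested.

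Control probe sets for rRNA did not overlap between the kits, while of the 3 transcripts read at both ends ubiquitin did. The log2 signal for 5S rRNA was 12.31, 12.56 and 12.23 in One-Direct samples 1 to 3 and 5.94, 6.55 and 5.89 in Pico samples 1 to 3, a difference of 6.24. The 25S rRNA signal went the other way, at 13.38, 13.41 and 12.90 in One-Direct and 15.68, 16.01 and 14.15 in Pico, a difference of -2.05. The ratio of 3' to 5' signal, which rises where a transcript's 5' end is copied less, gave no single direction. For GAPDH its log2 value was 2.24 ± 0.18 (SD, n = 3) in One-Direct and 1.20 ± 0.16 in Pico, for actin 2.56 ± 0.17 and 3.25 ± 0.36, and for ubiquitin 3.00 ± 0.17 and 2.67 ± 0.15. The kits did not overlap for GAPDH and actin and did for ubiquitin. Exact permutation p was 0.1 for each non-overlapping measure, the smallest that 3 against 3 allows (adjusted p = 0.108 over 13 measures), and 0.2 for ubiquitin. The brightest 1% of probe sets held 10.0% ± 1.49 of summed signal in One-Direct and 17.7% ± 3.10 in Pico (exact permutation p = 0.1). These measures moved together with the gene differences above, and their part in them was not tested.

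**Figure D5:**
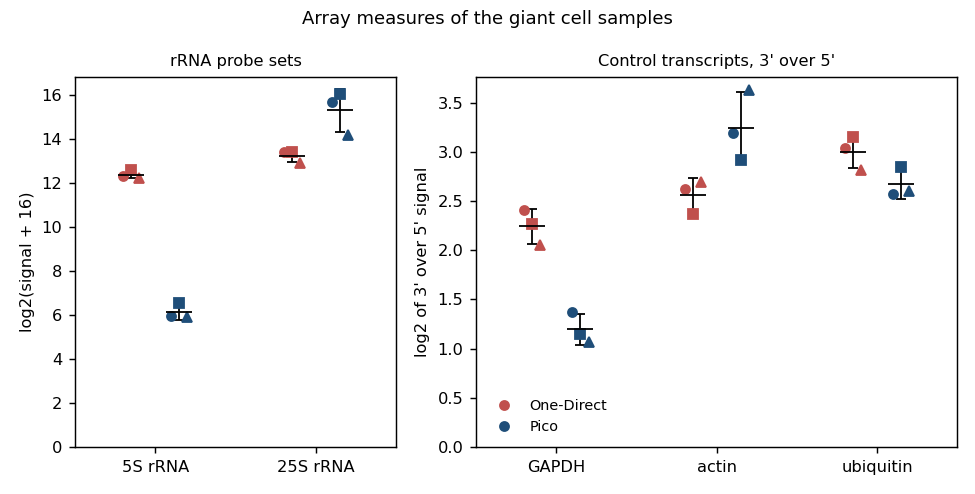
Left, log2(signal + 16) of the rRNA probe sets, and right, log2 ratio of 3' to 5' signal of 3 control transcripts, in the 6 giant cell samples; points are samples (circle 1, square 2, triangle 3), horizontal marks are means and error bars SD. The 5S rRNA signal lies 6.24 log2 units higher with One-Direct, and the 25S signal 2.05 lower.

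Pico arrays of giant cells varied less than One-Direct arrays in most of these measures, a description with no test. The median SD of a probe set over 3 technical arrays of sample 1 was 0.389 log2 units in One-Direct and 0.288 in Pico, and over 3 biological samples, each as 1 array, 0.5002 and 0.347. Among probe sets at a signal of 1000 or more the technical SD was 0.260 and 0.197, and the biological SD 0.366 and 0.257. Below 100 the biological SD was 0.731 over the 310 dim probe sets of One-Direct and 0.654 over the 2363 of Pico, but the technical SD was 0.582 and 0.590, slightly higher in Pico. Of probe sets detected on any of 3 technical arrays, 73.5% were detected on all 3 with One-Direct and 83.8% with Pico. The fit used one estimate of spread for both kits.

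The kit difference of giant cells was set against that of control cells. In control cells 3123 of 14652 probe sets (21.3%) were called between the kits, 1647 (11.2%) higher in One-Direct and 1476 (10.1%) lower. The test of the difference itself, the interaction term, called 3 probe sets (0.0205%), and 1347 had an unadjusted p under 0.05. One of the 3 was listed with a gene, AT1G52070, with giant cell signals of 20.6, 72.4 and 139 in One-Direct and 15.6, 4.22 and 38 in Pico. Its kit difference was 1.29 in giant and -4.14 in control cells, and the difference of these was 5.43 (SE 0.78, limma, adjusted p = 0.0471). The call was lost in 13 of 19 alternatives. The median difference of ribosomal protein genes was -1.36 in giant and -1.69 in control cells, and that of pseudogenes, unfiltered, 2.44 and 1.62. The interaction gave 0 calls without One-Direct sample 2 or 3, Pico sample 1 or 3, control One-Direct sample 3 or any one control Pico sample, 9 without Pico sample 2 and 44 without control One-Direct sample 2. A low count of interaction calls does not show that the kits acted alike in both cell types.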

How the data were processed

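The authors' deposited values are Affymetrix ATH1 signal intensity from MAS5 in Expression Console, per the submitters' processing notes; the sources give no version or parameters. Each array was first rescaled to the common mean of the arrays' trimmed means (2% trimmed at each end), which changed the deposited values by rounding only. From these, log2(signal + 16) was computed, technical arrays were averaged, and limma 3.58.1 in R 4.3.3 was fitted to 12 biological samples with 4 group means. Probe sets above the array median in at least 3 samples were tested, with Benjamini-Hochberg adjustment and a threshold of 0.05. Single measures used exact permutation tests. Gene names came from the platform annotation: 13513 of 22746 probe sets had 1 gene, 503 several and 8730 were unlisted, and 13436 matched RefSeq (TAIR10.1). For genes with several probe sets the brightest was used. Named genes were the 10 protein-coding genes called with the largest difference in each direction (kits not overlapping, signal of at least 200 in every sample of the higher kit, no _s_at or _x_at suffix), the 5 such genes of other types with any suffix, the 10 protein-coding genes with the highest lowest signal, up to 3 genes in each direction called in the interaction, and up to 4 genes of each list with the smallest adjusted p; others are said to be chosen after values were seen or stand for a list's calls. Members and lists were chosen with earlier results of these data known. Fits were tested on simulated data.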

Additional observations from a re-analysis of the deposited data

Results flagged for a closer look

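The kit difference itself differed between giant and control cells at 3 probe sets by the interaction term (limma, adjusted p under 0.05). The values are the giant cell difference minus the control difference, with sign, in log2 units. For AT1G52070 this was 5.43, from 1.29 in giant cells, where it was not called, and -4.14 in control cells. In size its kit difference was thus the larger in control cells. For a probe set not listed with a gene it was 4.14 (giant 2.31, control -1.82), and for another unlisted one 5.17 (giant 4.62, control -0.55). Groups of 3 samples were not tested for outlying samples.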

How the results depend on the processing

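Of 187 values of main results under 24 alternative settings, 126 stayed within the limits set and 61 moved. Of 93 named genes called, 61 were called in every setting in which they passed the filter. Some of the 61 did not pass it in every setting, such as AGL104, which was tested in 20. AT3G07230 changed sign to 0.061 after quantile normalisation (adjusted p = 0.917, limma). The cause of these shifts was not tested. Called probe sets numbered 6178 (5275 higher) with no filter, 2014 (1132 higher) with a stricter filter, 5432 (3674 lower) with median centring, 5838 (2578 lower) with quality weights and 4683 (1851 lower) with a weight per group, and 1614 were lower with the 6 giant cell samples alone. Interaction calls numbered 0 with a pseudocount of 1 or 64, no filter, quantile normalisation, the first technical array or a weight per group, 1 with a stricter filter, 29 with a random block and 32 with quality weights. Pseudogenes higher numbered 701 with no filter and 196 with a stricter one, and ribosomal protein genes lower 49 with quantile normalisation. Detection with Pico only was 18 at a threshold of 50. At 200, One-Direct only was 1327, Pico only 172 and pseudogenes 221; after quantile normalisation 1058, 631 and 242; at the array median, a threshold that fixes how many probe sets each array detects, 777, 627 and 183, with 7128 in both.

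Leaving out each sample in turn gave 1859 to 3990 calls, 1481 to 2407 higher, 378 to 1583 lower, 60.3% to 83.1% higher, 0 to 44 interaction calls, 265 to 318 pseudogenes higher, 44 to 94 ribosomal protein genes lower, and 11405 to 11599 probe sets detected with both kits, 2386 to 4162 with One-Direct only, 86 to 175 with Pico only and 374 to 570 pseudogenes with One-Direct only. The counts of probe sets detected with both kits or with 1 kit only could only rise here, because fewer samples then had to meet the rule. Calls fell to 1859 without One-Direct sample 2 and 1894 without sample 3. Lower calls were 378 and 394 without these, 393, 385 and 466 without Pico samples 1, 2 and 3, and 1583 without control One-Direct sample 1. Equal replicate numbers did not pair the samples (r of deviations -0.05, 0.02 and 0.05). With the replicate block, 2988 were called, 2218 higher and 770 lower, with 2 interaction calls and 67 ribosomal protein genes lower.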
